A study of Homo sapiens with 4 samples.

Results

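The 1127 regions described here are MTF-1 peaks found at transcription start sites (TSS) in cadmium-exposed cells and absent from the control peak list. A peak was included when it shared no base with any peak of the control list and when its centre lay within 1 kb of a GENCODE 44 transcript start on chromosomes 1 to 22 or X. They were 1127 of 9074 gained peaks, 6.34% of the 17769 cadmium-list peaks at starts, and a small share of the 129429 peaks in both lists together. Over all 60121 cadmium-list peaks on these chromosomes, 15.1% were gained. The regions were thus chosen by absence from the control list and closeness to a start, and their widths, gaps and distances are given as description only.

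MTF-1 was profiled by CUT&RUN, in which an antibody directs a nuclease to a protein on chromatin and the released DNA is sequenced, in MDA-MB-231 cells, an established human breast cancer line. The control group was passaged serially in ordinary medium without added cadmium, and the cadmium group was passaged in rising CdSO4 and kept at 10 µM, so that the second group is a long-term adapted population and not cells after an acute dose. Each condition had 2 libraries, which the authors merged before calling peaks, leaving 1 peak list per condition with positions but no height, score or read count. From these lists depth is unknown and no spread between replicates could be computed, other files of the study were not used here, and each test below compares peaks of lists and not replicates of conditions. Intervals are 95% Wilson intervals for shares and 95% Wald intervals for odds ratios, and since neighbouring peaks are not independent they cover counting error only.

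MTF-1 is the zinc finger transcription factor that senses metal load and activates metallothionein genes through metal response elements (MREs), short DNA motifs with the core TGCACNC or TGCGCNC. Many human genes have several annotated starts, of which the Ensembl canonical start belongs to the transcript chosen to represent the gene. Housekeeping promoters usually lie in CpG islands, stretches rich in G, C and the CpG dinucleotide that most of the genome has lost, whereas starts inside genes are often poor in CpG. Gained peaks are compared with 16642 conserved TSS peaks, which are cadmium-list peaks at starts that overlap a control peak, and with 2124 lost TSS peaks, which are control-list peaks at starts that overlap no cadmium peak.

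Gained TSS peaks at protein-coding genes lay mostly away from the canonical start, and few gained TSS peaks of any kind were in CpG-rich sequence. To show what such starts look like, 150 bases upstream of the gained start are printed for 3 genes beside 150 bases upstream of a start of the same gene that had a control peak. All are hg38, read 5′ to 3′ along the gene, lie outside annotated exons and have each CpG in capitals.
KNDC1 gained start, chr10:133183194-133183343, plus strand: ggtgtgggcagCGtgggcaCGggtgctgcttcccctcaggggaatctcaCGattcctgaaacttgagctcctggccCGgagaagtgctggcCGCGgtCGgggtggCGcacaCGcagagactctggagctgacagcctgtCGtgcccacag
KNDC1 control start, chr10:133160069-133160218, plus strand: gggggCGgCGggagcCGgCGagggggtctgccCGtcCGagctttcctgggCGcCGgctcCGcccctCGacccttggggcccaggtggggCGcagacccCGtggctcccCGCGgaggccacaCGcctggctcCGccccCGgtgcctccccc
ZNF423 gained start, chr16:49664226-49664375, minus strand: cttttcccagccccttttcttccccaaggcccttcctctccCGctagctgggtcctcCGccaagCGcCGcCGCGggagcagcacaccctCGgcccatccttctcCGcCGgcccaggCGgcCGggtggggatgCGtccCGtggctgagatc
ZNF423 control start, chr16:49857920-49858069, minus strand: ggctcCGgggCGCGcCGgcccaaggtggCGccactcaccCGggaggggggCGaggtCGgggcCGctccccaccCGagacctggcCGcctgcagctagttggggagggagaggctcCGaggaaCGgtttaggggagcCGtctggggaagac
ECE1 gained start, chr1:21280070-21280219, minus strand: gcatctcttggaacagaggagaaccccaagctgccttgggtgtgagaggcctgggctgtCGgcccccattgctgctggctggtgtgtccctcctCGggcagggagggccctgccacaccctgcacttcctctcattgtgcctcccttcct
ECE1 control start, chr1:21290465-21290614, minus strand: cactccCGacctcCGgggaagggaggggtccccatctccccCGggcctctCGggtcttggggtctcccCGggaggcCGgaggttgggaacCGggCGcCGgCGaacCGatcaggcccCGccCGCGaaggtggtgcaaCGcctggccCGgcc

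KNDC1 encodes a guanine nucleotide exchange factor for RAS proteins, ZNF423 a zinc finger transcription factor and ECE1 the enzyme that processes big endothelin. The gained start of ECE1 had 2 CpGs in these 150 bases (GC content 64.0%) and its control start had 16 (76.0%), with 10395 bp between the starts. In KNDC1 the numbers were 10 and 17 CpGs, over starts 23125 bp apart. ZNF423 differed least, with 13 CpGs at the gained start and 14 at the control start, 193694 bp away. Next come starts from 2 protein-coding genes that had no control peak at any start.
EXTL1 gained start, chr1:26019734-26019883, plus strand: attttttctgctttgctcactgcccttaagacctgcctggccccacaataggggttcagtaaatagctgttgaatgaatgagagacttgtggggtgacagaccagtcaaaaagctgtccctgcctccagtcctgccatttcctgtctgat
GABRE gained start, chrX:151970553-151970702, minus strand: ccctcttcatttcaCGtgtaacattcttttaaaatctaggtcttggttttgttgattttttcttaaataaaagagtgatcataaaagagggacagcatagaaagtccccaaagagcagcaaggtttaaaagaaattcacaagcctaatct

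These genes encode an exostosin-like glycosyltransferase (EXTL1) and a subunit of the GABA type A receptor (GABRE). The printed sequence of GABRE held 1 CpG and that of EXTL1 held 0. GABRE had another gained peak at chrX:151974001-151975199, whose closest start was 12 bp from the canonical one, in a CpG-rich window with 73.0% GC. The 5 genes were taken from the widest named peaks for which the start lay in the 500 bp around the peak centre and the printed bases lay outside exons, with the nearest control start that met the same condition. This rule was set after values had been seen.

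Gained TSS peaks were narrow. Their median width was 599 bp (quartiles 399 and 1199 bp), the narrowest was a single bin of 199 bp and the widest 6599 bp. Conserved TSS peaks had a median width of 1799 bp (1199 and 2799 bp), lost TSS peaks 1199 bp (599 and 2199 bp) and the 7947 gained peaks away from starts 599 bp (399 and 999 bp). Of the gained TSS peaks, 70 (6.21%) were a single bin and 92 (8.16%) were at least 2 kb wide, against 0.541% and 42.3% of the conserved ones. Among cadmium-list TSS peaks under 400 bp, 29.5% were gained, and the share was 12.1% at 400 to 999 bp, 4.24% at 1000 to 1999 bp and 1.29% from 2000 bp.

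The peaks were spread widely around the start. The centre lay within 100 bp of the closest start for 226 gained TSS peaks (20.1%), against 35% of conserved and 20.1% of lost TSS peaks. The median distance was 344 bp for gained, 177 bp for conserved and 319 bp for lost TSS peaks. A gained peak covered its closest start in 687 cases (61.0%), a conserved peak in 92.0% and a lost peak in 77.8%. Centres fell downstream of the start in 47.6% of gained TSS peaks.

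**Figure D1:**
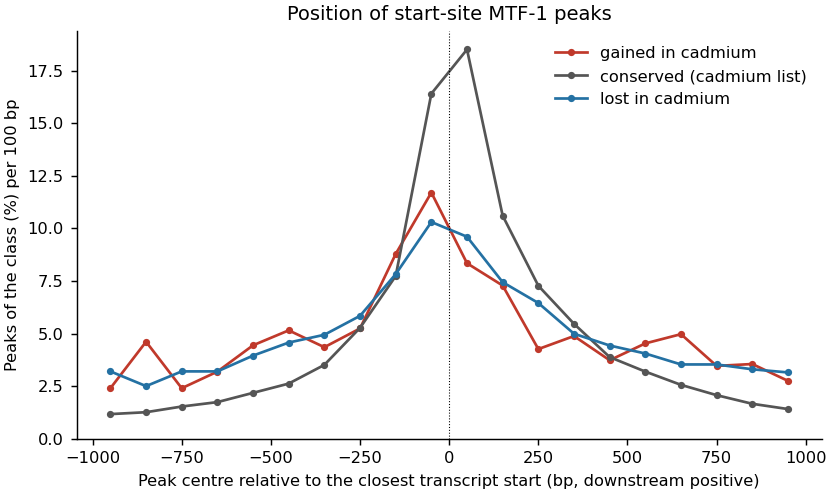
Position of the peak centre relative to the closest transcript start (x axis, bp, downstream positive) for gained, conserved and lost TSS peaks (y axis, percent of the class in each 100 bp). Gained and lost TSS peaks show a lower and broader profile than conserved TSS peaks, of which 35% lie within 100 bp of the start.

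Control peaks were often nearby. The gap to the nearest control peak had a median of 7401 bp (quartiles 2801 and 21501 bp), and it was at most 5 kb for 432 peaks (38.3%) and at most 10 kb for 642 (57.0%). The 63 peaks (5.59%) within 1 kb included 5 separated by 1 base, which is the space between adjoining bins. These 5 lay at ADGRB2, COL20A1, LRIG1, ABCB8 and MIR6846. Just outside the overlap limit were 169 cadmium TSS peaks sharing under 200 bases with control peaks, among them HES2, CASZ1 and DNALI1, which shared 199. At the distance limit, TFEB (1000 bp), GRIK4 (999 bp) and LINC02533 (998 bp) were just inside and MTG2 (1002 bp), CYP2AB1P (1002 bp) and the lncRNA ENSG00000273773 (1004 bp) just outside.

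By the type of the gene with the closest start, 657 of the 1127 gained TSS peaks (58.3%, 55.4 to 61.1%) were at protein-coding genes and 290 (25.7%, 23.3 to 28.4%) at lncRNA genes. A further 107 (9.49%) were at pseudogenes, 56 (4.97%) at small RNA genes, of which 22 were miRNA and 18 snRNA genes, and 17 (1.51%) at other types. Protein-coding genes were closest to 77.8% of conserved TSS peaks and lncRNA genes to 17.0%. Of all annotated starts, 66.8% belonged to protein-coding genes, 21.9% to lncRNA genes, 7.36% to pseudogenes and 3.21% to small RNA genes. The protein-coding share of all starts thus lay between those of gained and conserved TSS peaks. The odds ratio of gained against conserved was 0.398 (0.352 to 0.450, adjusted p = 9.05e-45) for protein-coding and 1.69 (1.47 to 1.94, adjusted p = 3.11e-12) for lncRNA genes (two-sided Fisher's exact test, Benjamini-Hochberg adjustment over 10 tests). Within strata of peak width, the common odds ratios were 0.630 (0.551 to 0.719) and 1.30 (1.13 to 1.51).

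Lost TSS peaks had a mix of gene types close to that of the gained ones in value, with 61.9% protein-coding and 25.4% lncRNA genes. The odds ratio of gained against lost was 0.862 (0.744 to 0.998, adjusted p = 0.0712) for protein-coding and 1.02 (0.861 to 1.20, adjusted p = 0.866) for lncRNA genes, both by Fisher's exact test. Neither passed the threshold of 0.05.

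**Figure D2:**
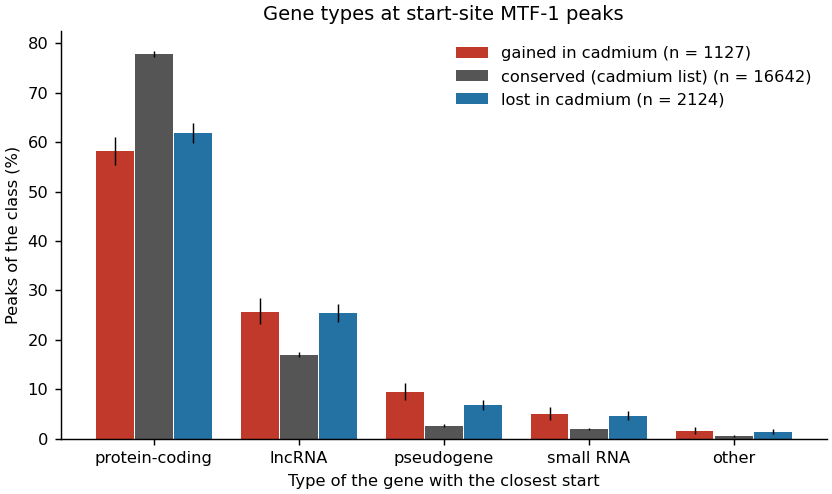
Share of TSS peaks (y axis, percent of the class, bars) by the type of the gene with the closest start (x axis), with 95% Wilson intervals as error bars. Protein-coding genes make up 58.3% of gained, 77.8% of conserved and 61.9% of lost TSS peaks.

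Gained TSS peaks were less often at the main start of a coding gene than conserved TSS peaks were. A canonical start of a protein-coding gene lay within 1 kb of 175 gained TSS peaks (15.5%, 13.5 to 17.8%) and of 61.6% of conserved TSS peaks (odds ratio 0.115, 0.0973 to 0.135, adjusted p = 1.38e-208, Fisher's exact test), with 0.246 (0.207 to 0.292) within width strata. Lost TSS peaks were at such a start in 17.7% (odds ratio of gained against lost 0.852, 0.700 to 1.04, adjusted p = 0.145, exact test as above). Of the 657 gained peaks closest to a protein-coding gene, 489 (74.4%, 71.0 to 77.6%) had as closest start one that lay over 1 kb from the canonical start. The share was 27.3% among conserved peaks (odds ratio 7.76, 6.49 to 9.29, adjusted p = 3.84e-131) and 72.1% among lost peaks (odds ratio 1.13, 0.912 to 1.40, adjusted p = 0.283), both by Fisher's exact test. The closest start belonged to a protein-coding transcript in 43.5% of the 657, against 65.0% of conserved and 48.6% of lost peaks at coding genes, so that many of these starts are of non-coding transcripts of coding genes. The centre fell in an intron for 614 gained TSS peaks (54.5%), in an exon for 340 (30.2%) and in intergenic sequence for 173 (15.4%).

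Starts on both strands near the peak, whether pointing apart or towards each other, were also less frequent than in conserved TSS peaks. Starts on both strands lay within 1 kb of 55 gained TSS peaks (4.88%) and 24.6% of conserved ones (odds ratio 0.157, 0.119 to 0.206, adjusted p = 1.31e-67, Fisher's exact test), with 0.295 (0.223 to 0.390) within width strata. In lost TSS peaks the share was 5.32% (odds ratio 0.913, 0.656 to 1.27, adjusted p = 0.687 by the exact test).

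The largest difference from conserved TSS peaks was in CpG. A window of 500 bp around the centre counted as CpG-rich when its GC content was at least 50% and its CpG count at least 0.6 times that given by its C and G content. Of the gained TSS peaks, 97 (8.61%, 7.11 to 10.4%) had a CpG-rich window, against 55.9% of conserved TSS peaks (odds ratio 0.0744, 0.0603 to 0.0919, adjusted p = 1.01e-233, Fisher's exact test). Of all 218307 distinct annotated starts, 37.6% had one in the 500 bp centred on the start itself. Peak windows are centred on the peak, so shares of all starts are not from windows placed alike. In lost TSS peaks the share was 10.9% (odds ratio 0.772, 0.602 to 0.990, exact test, adjusted p = 0.0712), and in gained peaks away from starts 1.23%. Median GC content was 52.4% in gained, 61.2% in conserved and 48.4% in lost TSS peaks.

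The CpG difference had the same direction in each width class. Under 400 bp, 4.79% of gained and 8.35% of conserved TSS peaks were CpG-rich. At 400 to 999 bp the shares were 11.6% and 40.7%, at 1000 to 1999 bp 9.80% and 65.0%, and from 2000 bp 7.61% and 60.8%. The common odds ratio within width strata was 0.147 (0.119 to 0.182). Among gained peaks the share was 8.68% for protein-coding genes, 8.62% for lncRNA genes, 8.41% for pseudogenes and 8.93% for small RNA genes.

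**Figure D3:**
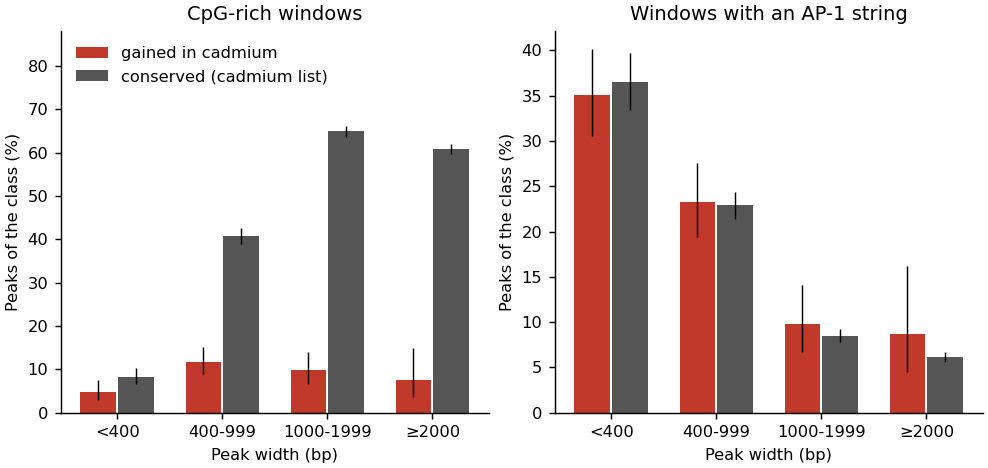
Share of gained and conserved TSS peaks (y axis, percent) whose 500 bp window is CpG-rich (left) or holds an AP-1 string (right), by peak width (x axis, bp), with 95% Wilson intervals as error bars. From 2000 bp, 7.61% of gained and 60.8% of conserved peaks are CpG-rich, while the AP-1 bars of both classes fall together, from 35.1% and 36.5% under 400 bp.

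The CpG-rich peaks stood mostly at canonical starts. In 165 gained TSS peaks the closest start was within 1 kb of the canonical start of its own protein-coding gene, and 44 of these were CpG-rich, against 13 of the 489 at other starts of coding genes. In 40 of the 44 the gene had no control peak at any start. They include RNF165, a ubiquitin ligase gene, with a peak of 4399 bp at chr18:46332201-46336599 and 70.2% GC, and RASEF, which encodes a RAB-type GTPase with EF-hands, with a peak of 2599 bp at chr9:83061001-83063599 whose centre lay 842 bp downstream of the start. GALNT14, a mucin-type glycosyltransferase gene, had a peak of 2399 bp at chr2:31136601-31138999. FOXN4, a forkhead factor gene, had a peak of 1599 bp at chr12:109309001-109310599. Their nearest control peaks were 8801, 33001, 94801 and 16801 bp away. GALNT14 was picked after its values had been seen.

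For each gene, it was asked whether control cells had MTF-1 at another of its starts. The 1127 peaks lay within 1 kb of a start of 1183 genes, 1.91% of the 62062 annotated, and 83 peaks had more than 1 gene. A control peak centre lay within 1 kb of the same start for 7 of these genes (0.592%), only at another start for 443 (37.4%, 34.7 to 40.2%) and at no start for 733 (62.0%, 59.2 to 64.7%). Of the 443 genes with a control peak only elsewhere, 409 also had a conserved cadmium-list peak at another start, and 34 had none. For those 409 genes the gained peak came in addition to a start occupied in both lists.

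Over all annotated genes, 65.6% of protein-coding and 26.4% of lncRNA genes had a control peak at a start. Of the 660 protein-coding genes with a gained TSS peak, 398 (60.3%, 56.5 to 64.0%) had a control peak only at another start, 4 at the same start and 258 (39.1%) at none. Of the 317 lncRNA genes the numbers were 43 (13.6%, 10.2 to 17.8%), 1 and 273 (86.1%). A control peak at any start was found for 60.9% of these protein-coding and 13.9% of these lncRNA genes (odds ratio 9.67, 6.78 to 13.8, adjusted p = 1.89e-46, two-sided Fisher's exact test). Genes with more starts have more chances to hold one, and within strata of the number of starts the common odds ratio was 3.19 (2.08 to 4.87, Mantel-Haenszel estimate over 634 protein-coding and 171 lncRNA genes in 6 strata). As the regions were chosen to share no base with a control peak, a gene with a single start could hardly have one. Genes with a gained TSS peak had a median of 9 starts if protein-coding and 2 if lncRNA. The outcome of the test was thus partly fixed by how the regions were chosen, and no conclusion about gene types is drawn from it.

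**Figure D4:**
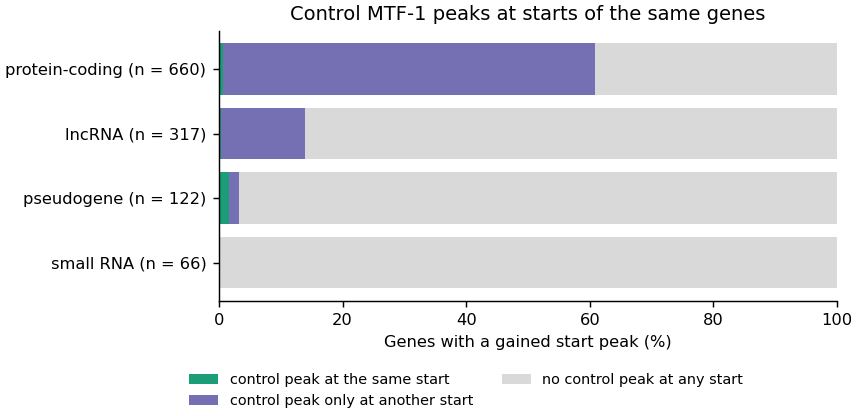
Genes with a gained TSS peak, by gene type (y axis, with the number of genes), and the percent of them (x axis) with a control peak at the same start, only at another start, or at none. Another start was occupied in control cells for 60.3% of protein-coding and 13.6% of lncRNA genes.

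In protein-coding genes with a control peak only at another start, the gained and the control start were a median of 15105 bp apart (quartiles 4950 and 37740 bp), and the genes had a median of 12 distinct starts. Those without any control start peak had a median of 5. Counted by peak and its closest gene, 2.89% of the 450 peaks with a control peak at another start and 12.5% of the 671 with none were CpG-rich. The gap to the nearest control peak had a median of 4801 bp in the first set and 11001 bp in the second.

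The longest separations were in long genes. In SDK1, which encodes an adhesion protein of neurons, the gained peak of 399 bp at chr7:4129401-4129799 was in an intron with its centre 85 bp from an annotated start, and that start was 828098 bp from the nearest start with a control peak. RARB, a retinoic acid receptor gene, had gained peaks of 399 bp at chr3:25174201-25174599 and 1999 bp at chr3:25426401-25428399. Their closest starts lay 254144 and 377 bp from the canonical one. The smallest distance from a gained start of this gene to a start with a control peak was 344779 bp. KCNQ1, a voltage-gated potassium channel gene, was gained at its canonical start (chr11:2444601-2445199, 599 bp) in a CpG-rich window with 81.8% GC, and its gained and control starts were at least 332253 bp apart. NCALD, a neuronal calcium sensor gene, had a peak of 399 bp centred 23 bp from a start that lay 8 bp from the canonical one. Its gained and control starts were at least 332973 bp apart. The other 6 of the 10 farthest, THADA, ERC1, KIF6, DNAH11, STK3 and DPF3, had gained and control starts 214794 to 318673 bp apart. In these 6 the start closest to the peak lay 214799 bp (DPF3) to 439054 bp (ERC1) from the canonical one, and in SDK1 828433 bp.

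The widest gained peaks at protein-coding genes were led by COL20A1, a collagen gene, with 6599 bp at chr20:63325001-63331599 over an exon, 1 base from a control peak. RABL6, a RAB-like GTPase gene, followed with 5999 bp at chr9:136823001-136828999 in an intron, 1001 bp from a control peak. TBC1D10C, a regulator of RAS and calcineurin signalling in lymphocytes, had 4599 bp at chr11:67403801-67408399. GRM2, a metabotropic glutamate receptor gene, had 4399 bp at chr3:51708201-51712599, 801 bp from a control peak. The width of RNF165 was also 4399 bp, and the next were WNK2 (4199 bp), a kinase gene of ion transport, and TBCD (3999 bp), a tubulin folding cofactor gene. CCDC187 and PAQR7, a membrane progesterone receptor gene, had 3599 bp each, and CARMIL2, KNDC1 and the urate transporter gene SLC22A12 had 3399 bp each. Of these 12 genes, TBC1D10C, RNF165, CCDC187 and SLC22A12 had no control start peak, and the other 8 had one at another start, with gained and control starts 3861 bp (GRM2) to 34113 bp (COL20A1) apart.

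Among protein-coding genes with no control start peak, the 10 widest also included EXTL1 and IL17REL, an interleukin 17 receptor-like gene (2999 bp each), and the creatine transporter gene SLC6A8 (2999 bp, chrX:153689801-153692799). SCRIB, an epithelial polarity gene, had 2799 bp. ABCA2, a lipid transporter gene, and CCL3, a chemokine gene, had 2599 bp each, as did RASEF and SLC38A3, so that the last places are tied. The start closest to the peak lay 10338 bp from the canonical start in SCRIB, 17221 bp in ABCA2 and 3437 bp in SLC6A8, and when any base of a control peak within 1 kb counted, these 3 genes did have a control peak at another start. SCRIB also had a conserved cadmium-list peak at another start. In IL17REL and SLC22A12 the closest start was the canonical one. At lncRNA genes the widest were LINC01502, with 5599 bp at chr9:135580801-135586399, ENSG00000261226 with 4199 bp, RPS6KB2-AS1 with 2999 bp, LCT-AS1 with 2799 bp and ENSG00000234967 with 2599 bp, and each of these 5 had no control start peak.

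Of the 1100 closest genes, 25 had 2 or more gained TSS peaks and 2 had 3. ECE1 had peaks of 1599, 599 and 999 bp at chr1:21279401-21280999, chr1:21297801-21298399 and chr1:21299201-21300199. GABBR2, which encodes a GABA type B receptor subunit, had peaks of 1199, 1399 and 1599 bp, at starts 101285 to 333628 bp from the canonical one. RARB, GRAMD1B, a sterol transfer gene, and RTN4R, a receptor gene of myelin inhibitors, had 2 each. Each of these 5 had a control peak at another start, whereas GABRE and PLA2G4C, a phospholipase A2 gene, also with 2 gained peaks each, had none. When any base of a control peak within 1 kb counted, PLA2G4C did have a control peak at another start and GABRE still had none.

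Gene families, listed by symbol, are described beside the background that 3.3% of all 19970 protein-coding genes had a gained TSS peak. None of 11 metallothionein genes, of 10 zinc exporter genes (SLC30A) or of 14 zinc importer genes (SLC39A) had one, although 4, 8 and 10 of them had a cadmium-list peak at a start and 3, 7 and 10 a control-list peak. None was found among 73 heat shock and J protein genes, 84 cytosolic ribosomal protein genes, 56 genes of respiratory complexes I and IV, 76 histone genes or 53 clustered protocadherin genes either. In that order, 59, 75, 48, 34 and 6 of them had a cadmium-list peak at a start. A control-list peak was at a start of 60, 69, 45, 32 and 11. In the NRF2 list, which holds antioxidant genes, 2 of 22 had one. OSGIN1, a growth inhibitor induced by oxidative stress, had a peak of 1199 bp and AKR1C2, an aldo-keto reductase gene, one of 399 bp. Among 19 AP-1 factor genes only BATF2 had one (599 bp), and among 52 forkhead genes FOXN4, FOXO6 and FOXJ2 did.

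Transporter families were at 11.1% for ABC transporters (5 of 45: ABCA2, ABCB8, ABCB9, ABCD3 and ABCG1) and 4.16% for solute carriers (15 of 361). The widest solute carrier peaks were at SLC22A12, SLC6A8 and SLC38A3, a glutamine transporter gene (2599 bp). Of 95 potassium channel genes 5 (5.26%) had one and of 26 calcium channel genes 2. CACNA1H, a T-type channel gene, had a CpG-rich peak of 2199 bp at chr16:1194001-1196199, 71 bp from a start. Only 3 of 508 genes named ZNF (0.591%) had one, whereas 436 had a cadmium-list TSS peak and 420 a control-list one. These 3 were ZNF423, ZNF618 and ZNF683.

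In the matrix and adhesion families, 4 of 44 collagen genes (9.09%) and 2 of 27 genes of matrix metalloproteinases and their inhibitors (7.41%) had a gained TSS peak. MMP2 had a single bin at chr16:55480401-55480599. CDH5, the endothelial cadherin gene, had a peak of 1599 bp centred 10 bp from a start, and CDH26 one of 999 bp. COL17A1 and KRT5, genes of the basal epithelial layer, had 399 bp each. In the cytokine lists there were 5 of 85 interleukin and receptor genes, 2 of 57 chemokine and receptor genes (CCL1 and CCL3) and 2 of 32 TNF ligand and receptor genes. These counts are small, and no list was tested.

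Motifs were searched as exact letters on both strands in the 500 bp around each centre, and 45 Fisher's exact tests over 15 motifs were adjusted together. Motif shares of all starts come from the 500 bp centred on each start, not on a peak. The AP-1 strings TGACTCA and TGAGTCA are bound by FOS and JUN dimers. The following sequences show them in capitals in 3 of the widest named peaks (hg38, outside exons).
CCDC187, chr9:136306050-136306248, plus strand: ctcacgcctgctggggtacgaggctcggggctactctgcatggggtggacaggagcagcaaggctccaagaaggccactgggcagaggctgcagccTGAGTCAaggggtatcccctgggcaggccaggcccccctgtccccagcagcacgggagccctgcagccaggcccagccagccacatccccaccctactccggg
PAQR7, chr1:25872156-25872354, plus strand: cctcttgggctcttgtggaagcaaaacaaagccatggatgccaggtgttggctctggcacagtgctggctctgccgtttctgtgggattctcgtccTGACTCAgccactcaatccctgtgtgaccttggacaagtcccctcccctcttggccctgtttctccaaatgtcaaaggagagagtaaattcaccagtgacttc
SLC6A8, chrX:153690166-153690358, plus strand: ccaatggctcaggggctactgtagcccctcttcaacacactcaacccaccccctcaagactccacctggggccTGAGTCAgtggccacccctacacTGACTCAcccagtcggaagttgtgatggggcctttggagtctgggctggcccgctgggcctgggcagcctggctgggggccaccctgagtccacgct

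The printed AP-1 string lay 1346 bp from the peak centre in CCDC187, 252 bp in PAQR7 and, for the nearer of the pair, 1038 bp in SLC6A8. All are outside the 500 bp searched around the centre, so that none of these peaks is among those counted next. Over the class, an AP-1 string was present in 259 gained TSS peaks (23%, 20.6 to 25.5%) and in 11.5% of conserved TSS peaks, with an odds ratio of 2.29 (1.97 to 2.65, exact adjusted p = 4.84e-24) that became 0.962 within width strata (0.820 to 1.13) and 1.00 when whole peaks were searched (0.885 to 1.14), while within GC strata it was 1.41 (1.21 to 1.64) and kept its call. Whole-peak searches cover more sequence in conserved and lost TSS peaks, which are wider, and so do not compare equal lengths. At equal width the shares were alike in value, with 35.1% and 36.5% under 400 bp, 23.3% and 22.9% at 400 to 999 bp, 9.80% and 8.46% at 1000 to 1999 bp and 8.70% and 6.16% from 2000 bp.

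Against lost TSS peaks, of which 18.9% had an AP-1 string, gained TSS peaks had an odds ratio of 1.28 (1.07 to 1.52, exact adjusted p = 0.0163), which turned to 0.900 within width strata (0.746 to 1.09) and 0.976 in whole peaks (0.839 to 1.13), and was 1.55 (1.29 to 1.87) within GC strata. Gained peaks away from starts held it more often, in 34% (odds ratio 0.580, 0.501 to 0.671, exact adjusted p = 3.78e-13). Among all annotated starts 6.76% held it. Within the gained TSS peaks it was found at 22.7% of those at protein-coding genes and 23.4% of those at lncRNA genes.

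Forkhead factors bind the string GTAAACA. The related ATAAACA was counted with it, as were its variant GTAAATA and, with another first base, the string ATAAATA. One of these was in 211 gained TSS peaks (18.7%, 16.6 to 21.1%) and in 33.0% of lost TSS peaks (odds ratio 0.469, 0.393 to 0.558, exact adjusted p = 1.55e-17), and this difference held within strata of width and of GC content. In whole peaks the odds ratio was 0.324, but lost TSS peaks are wider, so that search does not compare equal lengths. Of all starts, 21.8% held a forkhead string. Against conserved TSS peaks (14.5%) the odds ratio was 1.36 (1.16 to 1.59, exact adjusted p = 0.000596), but 0.778 within GC strata (0.659 to 0.918) and 0.903 within width strata (0.765 to 1.07). In whole peaks, where the wider conserved peaks gave more sequence to search, it was 0.339 (0.297 to 0.388).

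The MRE core was searched as TGCACNC and TGCGCNC. It appears in capitals, on the opposite strand to the one printed, near the centres of 2 of the widest gained peaks.
RABL6, chr9:136825965-136826163, plus strand: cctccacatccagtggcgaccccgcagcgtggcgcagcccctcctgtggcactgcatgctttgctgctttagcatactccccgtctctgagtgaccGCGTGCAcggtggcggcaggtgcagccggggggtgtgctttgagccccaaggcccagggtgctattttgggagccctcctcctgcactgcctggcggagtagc
LINC01502, chr9:135583516-135583714, plus strand: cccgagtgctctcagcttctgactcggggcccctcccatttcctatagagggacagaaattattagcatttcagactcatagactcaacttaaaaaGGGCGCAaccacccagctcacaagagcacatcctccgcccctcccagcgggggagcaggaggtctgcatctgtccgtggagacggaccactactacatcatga

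These copies lay 61 bp from the peak centre in RABL6 and 12 bp in LINC01502. The core was in 402 gained TSS peaks (35.7%, 32.9 to 38.5%), 47.0% of conserved TSS peaks (odds ratio 0.626, 0.552 to 0.710, exact adjusted p = 8.17e-13) and 33.9% of lost TSS peaks (odds ratio 1.08, 0.927 to 1.26, adjusted p = 0.428). Against conserved TSS peaks the common odds ratio was 0.844 (0.739 to 0.965) within width strata and 0.864 (0.759 to 0.985) within GC strata, where the call was lost after adjustment. Of all starts 39.7% held it. The longer string TGCACACG was in 1.15% of gained and 1.20% of conserved TSS peaks (odds ratio 0.959, 0.546 to 1.69), and in 0.905% of all starts.

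Strings that are frequent in CpG-island promoters were less frequent in gained than in conserved TSS peaks. The GC box GGGCGG was in 24% of gained and 59.4% of conserved TSS peaks (odds ratio 0.216, 0.188 to 0.248, exact adjusted p = 5.17e-119) and in 42.8% of all starts. The ETS string CCGGAA was in 9.14% and 23.9% (odds ratio 0.321, exact adjusted p = 3.61e-34), with 19.6% of all starts, and the NRF1 string GCGCATGC in 0.976% and 3.03% (odds ratio 0.315, adjusted p = 3.35e-05), with 2.98%. These 3 differences kept their direction and call within width and GC strata. TATAAA went the other way, with 17.7% and 10.2% (odds ratio 1.90, exact adjusted p = 8.17e-13), and 19.1% of all starts, but the call was lost within width strata (1.19, 1.00 to 1.42) and GC strata (1.05, 0.882 to 1.25). The RUNX string TGTGGTT was in 11.4% and 6.74% (odds ratio 1.79, exact adjusted p = 1.13e-07), and in 6.82% of all starts, and this call too was lost within width strata (1.17, 0.95 to 1.43) and GC strata (1.22, 1.00 to 1.48). For the GC box, ETS, NRF1 and RUNX strings, the test against lost TSS peaks did not pass the threshold (Fisher's exact test, adjusted p from 0.162 to 0.883), although that of the GC box did within width strata (1.33, 1.11 to 1.59) and was 0.771 (0.626 to 0.948) within GC strata. TATAAA was less frequent in gained than in lost TSS peaks (23.0%, odds ratio 0.721, 0.601 to 0.866, exact adjusted p = 0.00115), with 0.598 within width strata and 1.14 (0.927 to 1.40) within GC strata.

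Gained TSS peaks were unevenly spread over chromosomes. On chromosome 16, 101 of 806 cadmium-list TSS peaks were gained (12.5%, 10.4 to 15%), on chromosome 22 49 of 469 (10.4%) and on chromosome 15 56 of 618 (9.06%). The lowest shares were 3.25% on chromosome 4 (21 of 647) and 3.35% on chromosome 7 (29 of 866). Lost TSS peaks tended to the reverse, at 5.53% of control-list TSS peaks on chromosome 16, 4.89% on chromosome 22 and 17.0% on chromosome 4. Not every chromosome followed this. The lost share was 9.68% on chromosome 15, and it was highest on chromosome 11 (18.4%), where the gained share was 6.21%. Over the 23 chromosomes the gained share had a Pearson r of -0.729 (Spearman correlation -0.681) with the lost share and of 0.816 (Spearman correlation 0.799) with the gained share of peaks away from starts. These correlations are a description, since all chromosomes share the same 2 lists.

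**Figure D5:**
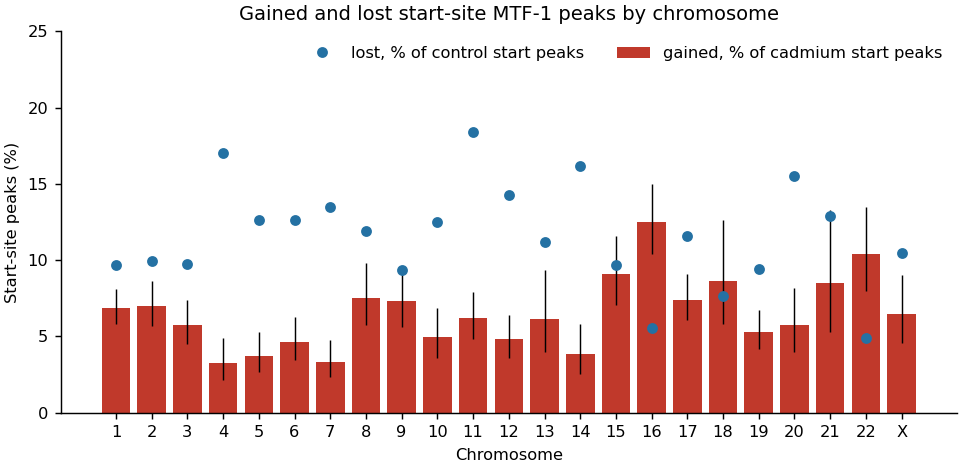
Percent of cadmium-list TSS peaks that are gained (bars, with 95% Wilson intervals) and percent of control-list TSS peaks that are lost (points) on each chromosome. Chromosomes 16 and 22 have the highest gained shares (12.5% and 10.4%) and the lowest lost shares (5.53% and 4.89%).

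In windows of 1 Mb, the most gained TSS peaks were 7, in each of 4 windows on chromosome 16. The window at chr16:57000001-58000000 held those at NLRC5, CX3CL1, ADGRG3, KIFC3 (2 peaks), CNGB1 and TEPP, out of 29 cadmium-list TSS peaks. CX3CL1 encodes the chemokine fractalkine and NLRC5 the activator of MHC class I genes. At chr22:22000001-23000000, 6 of only 7 cadmium-list TSS peaks were gained, and 5 of them were at immunoglobulin lambda variable segments. Of all gained TSS peaks, 16 of 1127 were closest to an immunoglobulin or T cell receptor segment, 6 of them on chromosome 14 and 6 on chromosome 22, against 18 of 16642 conserved and 12 of 2124 lost TSS peaks. Of the 16 segments, 9 are annotated as immunoglobulin variable pseudogenes and 1 as a T cell receptor variable pseudogene. These windows and segments were singled out after their counts had been seen.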

How the data were processed

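MTF-1 CUT&RUN was carried out by the authors in 2 control and 2 cadmium libraries of MDA-MB-231 cells. Per the labels and the study's methods, reads were trimmed, aligned to hg38 with Bowtie2 and handled with SAMtools 1.8 and deepTools, replicates were merged, and peaks were called with Epic2, a SICER implementation given as version 0.0.50. No background library for peak calling is named in the study's text. The deposited lists hold chromosome, start, end and a constant. Joining of 200 bp bins makes every width a multiple of the bin less 1 base.

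Overlap (at least 1 base), distance from centre to start, GC content, CpG and motifs were computed in Python 3.11.15 with pysam 0.24.0. Shares were compared by Fisher's exact tests (scipy 1.17.1) and by Mantel-Haenszel odds ratios within 9 width strata or GC strata of 5 percentage points. The steps were tested on simulated data. Genes are named for width, for lacking or having a distant control start, for several peaks, for nearness to a limit or by family (at most 3 each by width, and every member of small lists by symbol). Members, motifs and gene lists were chosen with earlier results of these data known. Some items that met these rules are not reported here.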

Additional observations from a re-analysis of the deposited data

How the results depend on the processing

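No paired analysis was possible because the replicates were merged before peaks were called, and for the same reason no replicate could be left out. The number of gained TSS peaks, 1127, was 718 with starts within 500 bp, 1761 within 2 kb, 1839 when a peak counted as gained with under 50% of its bases in control peaks, 686 with GENCODE basic transcripts, 560 with 1 canonical start per gene and 670 with starts of protein-coding genes. In the same order their share of cadmium-list TSS peaks was 5.04%, 8.08%, 10.3%, 4.60%, 4.17% and 4.61%, and it was 5.99% with the other list at least 1 kb away and 5.86% for peaks of at least 600 bp. The median width was 1199 bp for peaks of at least 600 bp and 999 bp under the 50% rule.

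Protein-coding genes were closest in 30.5% with canonical starts, 37.0% with basic transcripts, 63.2% for peaks of at least 600 bp and 62.3% under the 50% rule. The share of genes with a control peak only at another start was 11.8% with basic transcripts, 30.1% within 500 bp, 60.3% with starts of protein-coding genes and 24.9% under the 50% rule. The share with no control start peak was 99.7% with canonical starts, 87.9% with basic transcripts, 56.3% when any base of a control peak counted, 54.6% within 2 kb, 69.9% within 500 bp, 39.1% with starts of protein-coding genes and 41.7% under the 50% rule. Canonical starts give no share for another start, since a gene then has 1, and coding starts no share of protein-coding genes.

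The AP-1 odds ratio against conserved TSS peaks was 0.962 within width strata and 1.00 in whole peaks. Against lost TSS peaks it was 0.900 within width strata, 0.976 in whole peaks, 1.05 with canonical starts, 1.13 with basic transcripts and 1.17 within 500 bp. The forkhead odds ratio against conserved TSS peaks was 1.21 for peaks of at least 600 bp, 0.778 within GC strata, 0.903 within width strata and 0.339 in whole peaks. For both motifs, whole-peak searches do not compare equal lengths, as gained TSS peaks are narrower than conserved and lost ones. Forkhead against lost TSS peaks, and CpG-rich windows, protein-coding genes and starts on both strands against conserved TSS peaks, kept their direction and their call under each alternative run. Of the 102 named peaks, 42 remained with basic transcripts, 31 with canonical starts and 10 under every alternative. The cause of these shifts was not tested, beyond fewer starts or peaks entering. Unknown depth limits any statement about a single narrow peak.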
